A study of Mus musculus with 8 samples.

Results

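DEAD-box and DEAH-box RNA helicases were taken from the gene table of a knockdown experiment in heart muscle cells as every row whose symbol is DDX or DHX followed by a digit and whose counts, summed over all 8 libraries, reached at least 16. They were thus chosen by symbol and by summed count, a measured value. Of 33514 rows, 24 met the rule, 14 of them DDX and 10 DHX genes. The sum takes no account of the groups, so the rule itself did not use the difference between them. The family was, however, chosen with earlier results of these data known. The cells were adult cardiomyocytes of C57BL/6 mice, isolated by enzymatic digestion of the heart, plated and kept in culture. In the siHoxa5 group (4 libraries) they were transfected with small interfering RNA against Hoxa5, a homeobox transcription factor, and in the siN group (4 libraries) with a negative control. Cells of both groups received phenylephrine, which stimulates alpha1-adrenergic receptors and induces hypertrophic growth, at 100 µM for 24 h, beginning 24 h after transfection. The siRNA sequences, the age beyond "adult", and whether the 4 libraries of each group stem from different animals were not stated in the labels. The p-values therefore measure a spread among libraries that may be technical.

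RNA helicases of these families use ATP to open RNA duplexes and to remodel complexes of RNA and protein. DEAD-box members pry open short duplexes locally, whereas DEAH-box members move along a strand and serve above all in splicing and ribosome assembly. Both are named after the residues of helicase motif II (aspartate, glutamate, alanine, then aspartate or histidine), which takes part in ATP hydrolysis, and together they act at nearly every step in the life of an RNA, from transcription and splicing to export, translation and storage.

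The codons of that motif are shown because they define the family and because they show how close the paralogs are that reads have to be told apart between. Coding sequences are from the GENCODE M21 mouse annotation (GRCm38), printed on the coding strand with the 12 bases of motif II in capitals and 15 bases on either side.
Ddx5: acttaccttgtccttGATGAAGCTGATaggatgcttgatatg
Ddx17: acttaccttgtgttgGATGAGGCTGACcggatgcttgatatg
Ddx3x: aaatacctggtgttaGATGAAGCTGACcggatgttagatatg
Ddx3y: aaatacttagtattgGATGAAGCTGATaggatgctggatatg
Ddx6: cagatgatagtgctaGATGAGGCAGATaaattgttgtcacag
Ddx21: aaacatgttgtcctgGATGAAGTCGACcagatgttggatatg
Ddx50: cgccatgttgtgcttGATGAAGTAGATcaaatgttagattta
Dhx15: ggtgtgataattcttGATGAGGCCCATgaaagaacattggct
Dhx40: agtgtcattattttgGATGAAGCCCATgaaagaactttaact
Dhx9: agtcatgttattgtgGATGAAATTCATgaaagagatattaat
Such a window was found in 22 of the 24 genes (not in Ddx1 and Ddx24). The search covered only a limited stretch of each protein, so a window not found does not show that the motif is missing. The fourth codon began with GA in all 12 DDX windows and with CA in all 10 DHX windows. The third codon began with GC in 16 windows, with GT in 4 (Ddx21, Ddx50, Dhx29 and Dhx30) and with AT in 2 (Dhx9 and Dhx36). Over the 42 bases, Ddx5 and Ddx17 matched at 36, Ddx3x and Ddx3y at 34, and Ddx21 and Ddx50 at 31.

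A read that lies within a run identical between paralogs cannot be assigned to either. The longest such run between coding sequences is printed for Ddx3x on chromosome X and Ddx3y on chromosome Y, the pair with the longest run of the 3 compared, at 35 bases; noncoding parts of the transcripts were not included.
Ddx3x and Ddx3y: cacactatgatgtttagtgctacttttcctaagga
It was 21 bases for Ddx5 and Ddx17 and 23 for Ddx21 and Ddx50. Of all 50-base words in the chosen transcripts, 22.7% of those of Ddx5 occurred in a transcript of another gene, nearly all in the predicted gene Gm12183, and 17.3% of those of Ddx50, nearly all in Gm8228. The share was 4.49% for Ddx6, 3.25% for Ddx3x, 0.0439% for Ddx3y and 0 for 17 of the 24 genes, among them Dhx15 and Ddx17. Exons of 4 of the genes overlap those of another gene: Ddx5 (Mir3064), Ddx17 (Kdelr3, opposite strand), Dhx30 (Smarcc1, opposite strand) and Ddx41 (Gm46416, opposite strand). The library kit does not mark strand, so reads in such overlaps cannot be told apart.

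Library totals were 560190 to 619941.5 counts in siHoxa5 and 635824.5 to 658192 in siN. Symbols in the table are spelled as for human genes although the submitters' processing notes name the mouse build mm10; all 24 helicase symbols matched a mouse gene once case was ignored. HOXA5 itself had 1, 3, 4 and 1 counts in siHoxa5 libraries 1 to 4, against 2, 0, 3 and 3 in siN, which is too few to check the knockdown, and directions below are those of the libraries labelled siHoxa5. Cardiomyocyte markers (12 genes) took 6.20 to 6.47% of the counts in siHoxa5 libraries and 4.82 to 5.13% in siN; MYH6, MYH7 and ACTN2 were abundant, while MYL2, MYL3, TNNI3, PLN and MB had 0 counts throughout. Of 7 markers tested, 5 rose and 1, TNNT2, fell, with 98, 58, 92 and 64 counts in siHoxa5 libraries, against 91, 114, 134 and 126 in siN (log2 fold change -0.44, SE 0.13, edgeR adjusted p = 0.0257). Fibroblast markers (8 genes, with COL1A1 and COL1A2 carrying nearly all counts, TCF21 at 0) took 1.07 to 1.26% in siHoxa5 and 1.01 to 1.08% in siN. Of 2 fibroblast markers tested, 1, COL1A1, rose, and both log2 fold changes were above 0. Endothelial, smooth muscle and macrophage markers took at most 0.00291% in any library, and PECAM1, CDH5, CNN1 and CD68 were at 0. The smooth muscle marker MYH11 had 6 to 19 counts per library, and the endothelial marker KDR had 0 to 13. Because several cardiomyocyte markers were at 0 as well, a 0 here does not show that a cell type was absent. The part of these marker differences in the helicase values was not tested, and in such bulk RNA fewer cells of a type cannot be told apart from less RNA per cell.

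The 24 genes together took 1.98 to 2.06% of the counts in siHoxa5 libraries and 2.04 to 2.07% in siN, ranges that overlap. DDX5, DDX3X and DHX15 held 44.8%, 32.3% and 11.8% of these counts over all libraries. Of the 24, 20 had enough counts to be tested, and 1 of the 20, DHX15, fell, while none rose (edgeR's quasi-likelihood test, threshold 0.05 on p adjusted by Benjamini-Hochberg over all 3020 tested genes). That is 5% of the tested helicases, against 7.12% of all tested genes (3.38% lower and 3.74% higher), so the share called was no larger than in the table as a whole. The number with an unadjusted p under 0.05 was also 1 of 20, against 19.6% of all genes. DESeq2 called 0 of the 13 for which it gave an adjusted p. The median log2 fold change of the 20 was 0.02, beside 0.00 (-0.00369) over all tested genes, with 9 values below 0 and 11 above.

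**Figure D1:**
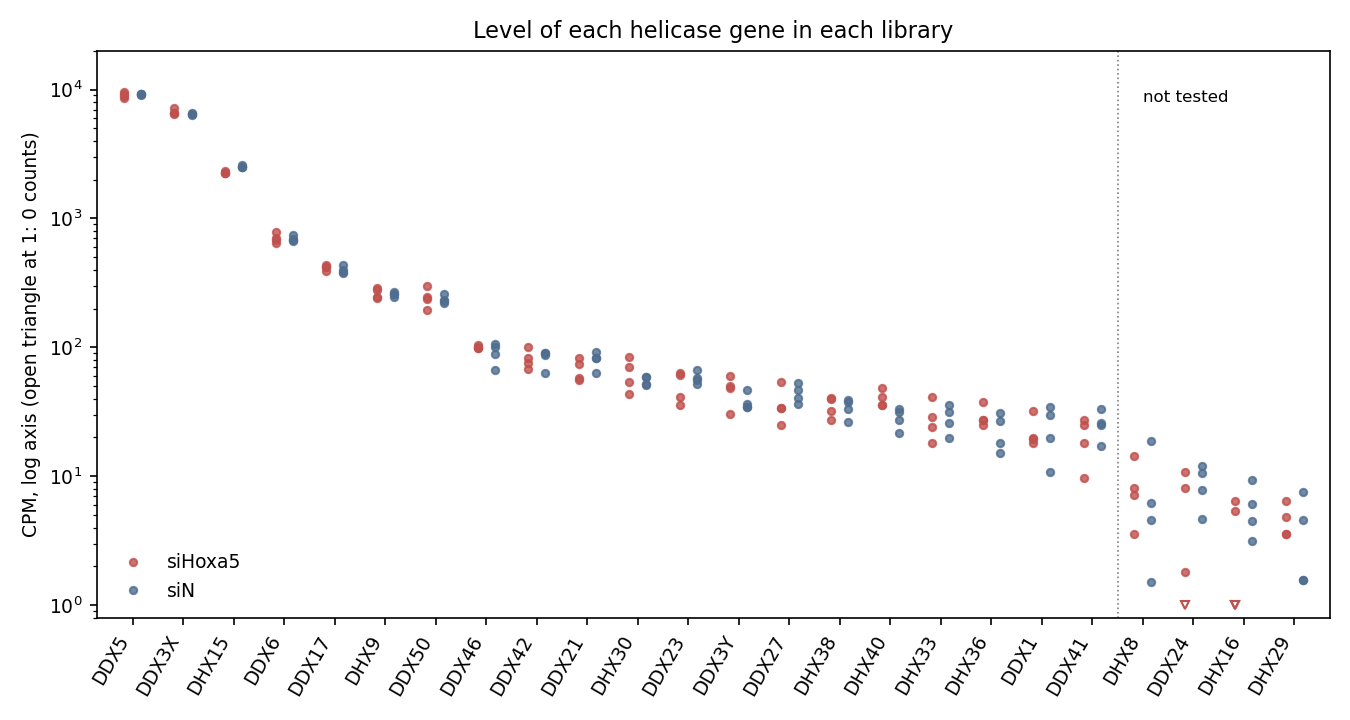
CPM, the counts scaled to the library size (log axis), of the 24 helicase genes, ordered by their summed counts; each point is 1 library, siHoxa5 (red) left of siN (blue), and open triangles mark libraries with 0 counts. Means in siHoxa5 ran from 9049.7 CPM for DDX5 down to a few CPM for DHX16 and DHX29, and in nearly every gene the clouds of the groups overlap.

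DHX15, the spliceosome and ribosome-assembly helicase whose yeast counterpart Prp43 takes spent spliceosomes apart, was lower in the siHoxa5 libraries. Its gene lies on chromosome 5 (52150203 to 52190514, minus strand, GRCm38). In counts scaled to library size (CPM), it had 2234, 2259, 2271 and 2341 CPM in siHoxa5 libraries 1 to 4, against 2492, 2522, 2607 and 2489 CPM in siN libraries 1 to 4. The groups did not overlap: the highest siHoxa5 library, number 4, stayed under the lowest siN library, also number 4. The means were 2276 ± 45.8 CPM in siHoxa5 and 2528 ± 55.0 CPM in siN (SD, n = 4 each), which is -0.15 as a log2 fold change (SE 0.05; adjusted p = 0.0473 in edgeR), or 0.900 times the siN level with an interval of 0.841 to 0.964 (1.96 SE to either side). The call was close to the threshold. It held under 6 of 15 other settings and was lost with DESeq2 (adjusted p = 0.0504), with no filter on low counts (0.228), and without any one library except siHoxa5 library 4 (adjusted p of 0.0175 without that library, and 0.0726 to 0.158 without each of the other 7). The size moved little, from -0.16 to -0.14 over all 15. Leaving out siHoxa5 libraries 2 and 4 together gave -0.16 (adjusted p = 0.0183 in edgeR). Both lay apart from the other siHoxa5 libraries on the first principal component. That component also separated the groups, and libraries 2 and 4 were the siHoxa5 libraries farthest from siN on it. Leaving them out is thus not independent of the difference tested, and its adjusted p is no further support for the call. Among all genes, 60 were at least as abundant as DHX15, itself included, and 26 of those 60 were called.

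**Figure D2:**
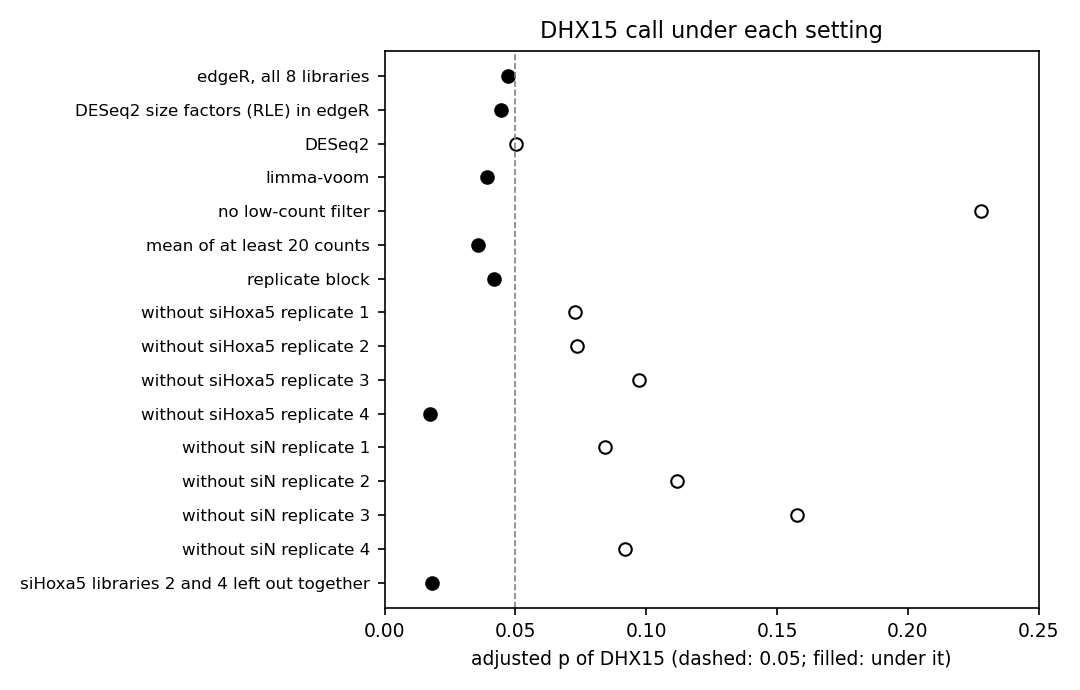
Adjusted p of DHX15 (x axis) under each setting (rows); filled points are under 0.05, open points are not. The value with all 8 libraries, 0.0473, lies just left of the dashed threshold, and 7 of the 8 settings that leave out 1 library lie right of it.

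The 5 other spliceosome helicases that were tested had 113 to 471 counts in all 8 libraries together and larger SEs than DHX15. DDX46, which acts early in spliceosome assembly (Prp5 in yeast), had 105, 98.8, 99.7 and 98.7 CPM in siHoxa5, against 88.0, 100.2, 106 and 66.5 CPM in siN (log2 fold change 0.16, SE 0.16; 0.037 without siN library 4). DDX23, which removes the U1 particle from the splice site (Prp28 in yeast), had 62.8, 35.9, 61.1 and 41.3 CPM in siHoxa5, against 57.6, 51.7, 55.9 and 66.5 CPM in siN (-0.19, SE 0.21). Its low siHoxa5 values were those of libraries 2 and 4. Without both, which raises the siHoxa5 mean in any case, the log2 fold change was 0.10. Without each library in turn it ranged from -0.31 to -0.063. DDX41, linked to splicing and to the sensing of DNA, had 9.66, 25.1, 27.3 and 18.0 CPM in siHoxa5 and 25.8, 17.2, 24.8 and 33.2 CPM in siN (-0.34, SE 0.33, edgeR adjusted p = 0.623). Its log2 fold change was -0.099 without siHoxa5 library 1 and -0.54 without siHoxa5 library 3. DDX42, a partner of the SF3B complex, and DHX38, which drives the second splicing step (Prp16 in yeast), had log2 fold changes of -0.02 and 0.03. DDX42 had 67.6, 75.4, 99.7 and 82.6 CPM in siHoxa5, against 86.5, 90.8, 90.1 and 63.4 CPM in siN, and DHX38 had 27.4, 32.3, 40.2 and 39.5 CPM in siHoxa5, against 33.4, 37.6, 26.4 and 39.3 CPM in siN. Groups overlapped in all 5 of these genes. DHX8 and DHX16, which act late in splicing and at its catalytic activation, were too low to test: DHX8 had 20 counts in siHoxa5 and 20 in siN, and DHX16 had 7 counts in siHoxa5 and 15 in siN, a rate 0.509 times that of siN (0.176 to 1.33, exact 95% interval for counting error). DDX39B, the helicase that recruits the U2 particle and export factors, had 0 counts in every library.

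DDX5 (p68) and DDX17 (p72) are close paralogs that serve as coregulators of transcription, as splicing regulators and as parts of the microprocessor that cuts primary microRNAs. DDX5, on chromosome 11 (106780355 to 106789185, minus strand), had the highest level of the family and was among the 10 most abundant genes of the table. It had 8578, 9156, 8861 and 9603 CPM in siHoxa5, against 9155, 9202, 9091 and 9291 CPM in siN. The siN libraries lay close together, and the siHoxa5 libraries spread to both sides of them. Its log2 fold change of -0.02 did not pass (SE 0.04; adjusted p = 0.854 in edgeR), with an interval of 0.928 to 1.05 times the siN level. DDX17, on chromosome 15, had 417, 389.7, 439 and 420.0 CPM in siHoxa5, against 379, 396, 432 and 384 CPM in siN (log2 fold change 0.07, SE 0.08, interval 0.935 to 1.17 times). The intervals of DDX5 and DDX17 leave room only for small changes, and changes within them could not be resolved. Per kilobase of transcript, DDX5 had 2543 CPM in siHoxa5 and 2581 CPM in siN, and DDX17 had 88.0 CPM in siHoxa5 and 84.0 CPM in siN. The counts of DDX5 stood to those of DDX17 as 20.2 to 23.5 in siHoxa5 libraries and as 21.1 to 24.2 in siN libraries; the log2 ratio differed by -0.09 between the groups (exact permutation test, two-sided, p = 0.200 and 0.371 after adjustment over the 2 paralog pairs compared; the smallest p possible is 0.0286).

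DHX9 (RNA helicase A), which unwinds structured RNA in the nucleus, had 287, 244, 243 and 276 CPM in siHoxa5, against 259, 246, 267 and 261 CPM in siN. The siHoxa5 values lay both above and below those of siN, and the log2 fold change was 0.02 (SE 0.10). DDX1, part of the tRNA ligase complex, had 19.3, 18.0, 32.2 and 19.7 CPM in siHoxa5, and 19.7, 29.7, 10.9 and 34.7 CPM in siN (-0.08, SE 0.32). DDX20, or Gemin3, of the SMN complex that assembles splicing particles, did not meet the rule, with 2 counts.

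DDX3X, which helps ribosomes scan structured leaders of messenger RNAs and joins stress granules, and DDX3Y, its counterpart on the Y chromosome, were both detected. DDX3X had 6593, 7186, 6569.6 and 6499.8 CPM in siHoxa5, against 6428, 6569.9, 6427 and 6367 CPM in siN. Library 2 of siHoxa5 stood highest and the groups overlapped by a narrow margin. Its log2 fold change of 0.06 did not pass (SE 0.05; adjusted p = 0.522 in edgeR), with an interval of 0.979 to 1.11 times the siN level. DDX3Y had 59.6, 30.5, 48.2 and 50.3 CPM in siHoxa5, against 47.0, 34.4, 34.2 and 36.3 CPM in siN (0.32, SE 0.23, edgeR adjusted p = 0.498; 0.19 without siHoxa5 library 1 and 0.51 without siHoxa5 libraries 2 and 4). Its value in siHoxa5 library 2 was the lowest of all 8 libraries. Whether the libraries differed in their share of cells from male animals was not tested. The counts of DDX3X were 111 to 235 times those of DDX3Y in siHoxa5 libraries and 137 to 191 times in siN libraries, with a difference in the log2 ratio of -0.23 (exact permutation test, two-sided, p = 0.371, adjusted 0.371). Of the 4551 words of 50 bases in Ddx3y, 2 occurred in Ddx3x; the read length and the handling of ambiguous reads were not stated.

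DDX6, which holds messenger RNAs in P-bodies and represses their translation, had 707, 682, 649.7 and 786 CPM in siHoxa5, against 696, 747, 686 and 668 CPM in siN. The siHoxa5 libraries included both the highest and the lowest value, and the log2 fold change was 0.01 (SE 0.07, interval 0.918 to 1.11 times). DHX29, which binds the small ribosomal subunit and helps it through structured leaders, had 11 counts in siHoxa5 and 10 in siN and was not tested. Of the other DEAD-box factors of translation, which carry other names, EIF4A2 had 2643, 2918, 2628 and 2971 CPM in siHoxa5, against 2650.2, 2665, 2741 and 2628 CPM in siN (0.06, SE 0.05, edgeR adjusted p = 0.546). EIF4A1, the major form of eIF4A in most tissues, had only 16 counts over all libraries, and EIF4A3, the exon junction helicase, had 2.

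**Figure D3:**
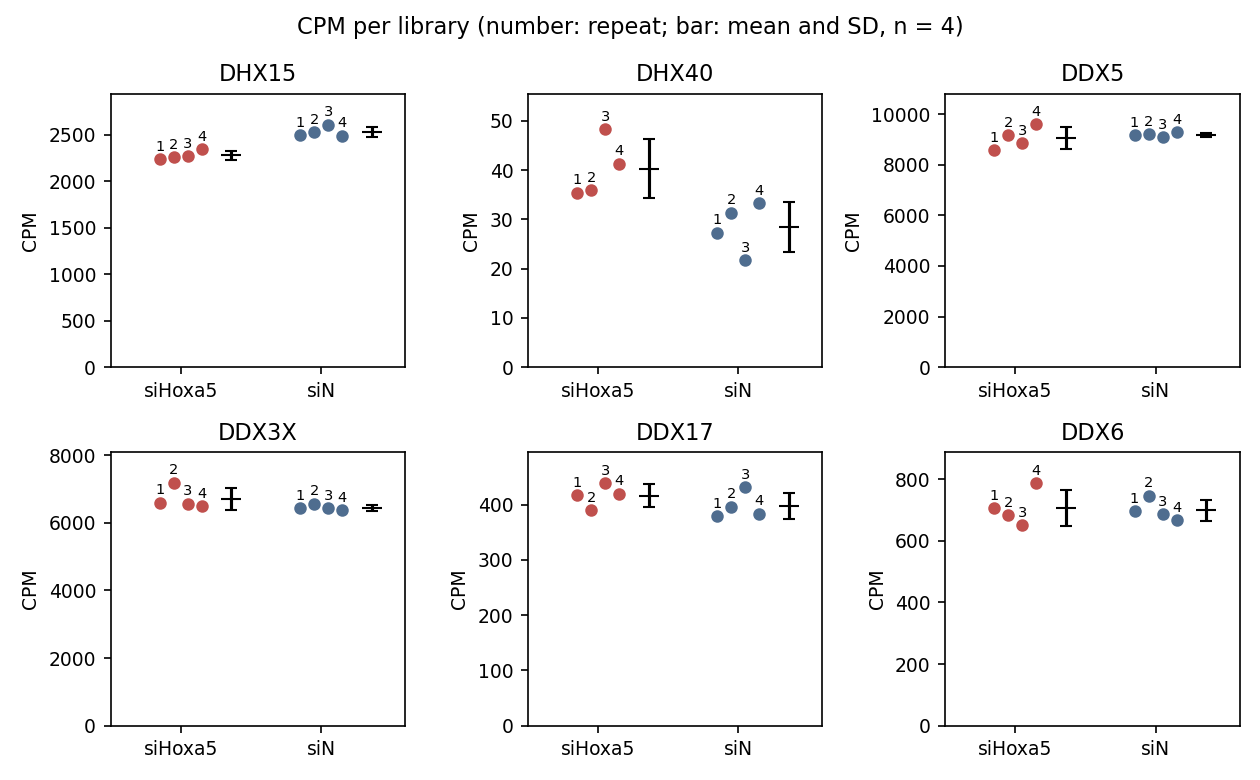
CPM (linear axes from 0) of 6 helicase genes in each library, siHoxa5 (red) left of siN (blue), with the repeat number over each point and the mean with its SD (n = 4) beside each group. DHX15 and DHX40 are the genes without overlap between groups; in DDX5 the siHoxa5 points, 8578 to 9603 CPM, enclose the siN points, 9091 to 9291 CPM.

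Of 16 listed helicases of ribosome assembly, 8 had 0 counts in every library (DDX10, DDX18, DDX31, DDX47, DDX52, DDX55, DDX56 and DHX37) and 4 were tested, of which none passed; their median log2 fold change was -0.12. DDX21, the nucleolar helicase of ribosomal RNA transcription and processing, had 82.1, 55.7, 74.0 and 57.4 CPM in siHoxa5, against 63.7, 83.0, 91.6 and 83.1 CPM in siN (log2 fold change -0.24, SE 0.18, edgeR adjusted p = 0.498). Its lower siHoxa5 values were again those of libraries 2 and 4. Leaving out the lowest values raises the siHoxa5 mean in any case, and the log2 fold change was then -0.04. Without each library in turn it ranged from -0.35 to -0.17. DDX50, its paralog in the neighbouring gene on chromosome 10, had 196, 239, 246 and 298 CPM in siHoxa5, against 228, 219, 231 and 261 CPM in siN (0.05, SE 0.11). Both the lowest and the highest value of DDX50 were in siHoxa5. DDX27 had 33.8, 25.1, 33.8 and 53.9 CPM in siHoxa5 and 53.1, 47.0, 40.4 and 36.3 CPM in siN (-0.27, SE 0.24), with the highest siHoxa5 library above every siN library. Its log2 fold change was -0.50 without siHoxa5 library 4 and -0.14 without siHoxa5 library 2. DHX33 had 24.2, 41.3, 28.9 and 18.0 CPM in siHoxa5 and 19.7, 31.3, 35.7 and 25.7 CPM in siN (0.00, unrounded -0.00147, SE 0.29). DDX24, not tested, had 12 counts in siHoxa5 and 23 in siN, a rate 0.569 times that of siN (0.258 to 1.19, exact 95% interval for counting error).

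DHX40, a DEAH-box protein that is little studied, was the other gene whose groups did not overlap. It lies on chromosome 11 (86768846 to 86807746, minus strand) and had 35.4, 35.9, 48.2 and 41.3 CPM in siHoxa5, against 27.3, 31.3, 21.7 and 33.2 CPM in siN. The means were 40.2 ± 5.97 CPM in siHoxa5 and 28.4 ± 5.08 CPM in siN (SD, n = 4 each), which is 0.50 as a log2 fold change (SE 0.26), the highest of the 20, but it did not pass the threshold (edgeR adjusted p = 0.268), nor did it under any of the other settings that gave an adjusted p (0.226 to 0.532; DESeq2 gave none). The interval ran from 0.994 to 2.01 times the siN level. That makes 2 of 20 tested helicases without overlap between groups, against 12.0% of all tested genes.

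DHX36, which opens G-quadruplexes, had 27.4, 25.1, 27.3 and 37.7 CPM in siHoxa5, against 18.2, 26.6, 31.1 and 15.1 CPM in siN (0.37, SE 0.30, edgeR adjusted p = 0.551; 0.21 to 0.55 without each library in turn). DHX30, which serves mitochondrial ribosome assembly as well as the cytosol, had 70.9, 84.4, 43.4 and 53.9 CPM in siHoxa5 and 59.2, 51.7, 51.2 and 58.9 CPM in siN (0.19, SE 0.20; 0.022 without siHoxa5 library 2 and 0.33 without siHoxa5 library 3). The siN values of DHX30 lay within those of siHoxa5, and for DHX36 the groups overlapped. The sensors of viral RNA DDX58 (RIG-I) and DHX58 (LGP2) had 1 and 0 counts, and DDX60 had 0.

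**Figure D4:**
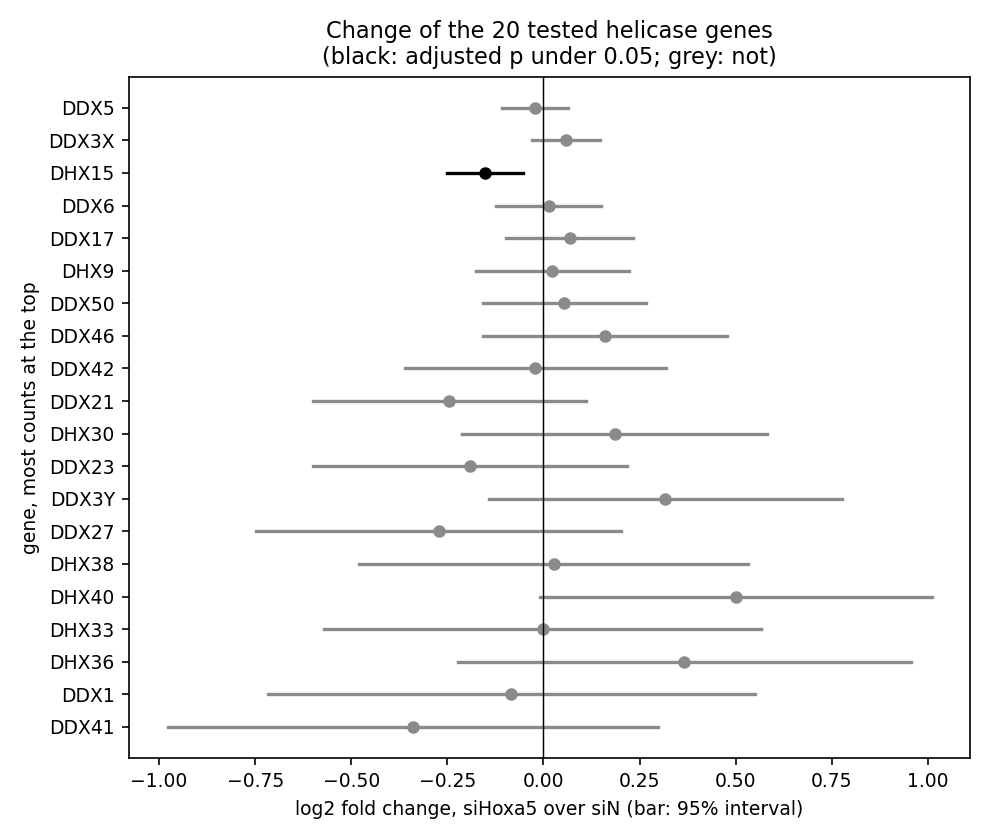
Log2 fold change of siHoxa5 over siN for the 20 tested helicase genes (x axis), with bars of 1.96 SE to either side and the gene with most counts at the top; black marks an adjusted p under 0.05. DHX15, at -0.15, is the only black point; intervals widen downwards from SE 0.04 for DDX5 to 0.33 for DDX41.

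Values close to the limit of the rule were 22 counts for DHX16 and 21 for DHX29, just inside, and 12 for DDX54, just outside. Of the 55 rows of the family (leaving out 2 antisense rows, both at 0), 8 had some counts but fewer than 16, and 23 had 0 in every library. Of those 23, 21 have a mouse gene of the same name; the exceptions were DDX53 and DDX60L. The rows at 0 include the export helicases DDX19A, DDX19B and DDX25, the germ-line helicase DDX4 and the nonsense-mediated decay factor DHX34, while DDX39A, the paralog of DDX39B, had 1 count. In a single library 0 counts allow a level of up to 3 counts, which is 4.84 to 5.36 CPM in siHoxa5 and 4.56 to 4.72 CPM in siN; over all 8 libraries they allow up to 0.605 CPM. This limit covers counting error only. Whether the rows at 0 reflect the level of the RNA or the way reads were assigned was not tested.

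The median SE of the log2 fold change was 0.19 over the 20 tested helicases and 0.17 over all tested genes. Spread among siHoxa5 libraries was larger than among siN libraries in 14 of the 20 (coefficient of variation, 70%), and in 58.7% of all tested genes. Of genes with a mean of at least 1000 CPM, 24.6% were called, against 5.99% of those below; 1 of the 3 helicases in the upper range was called, and 0 of the 17 in the lower.

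**Figure D5:**
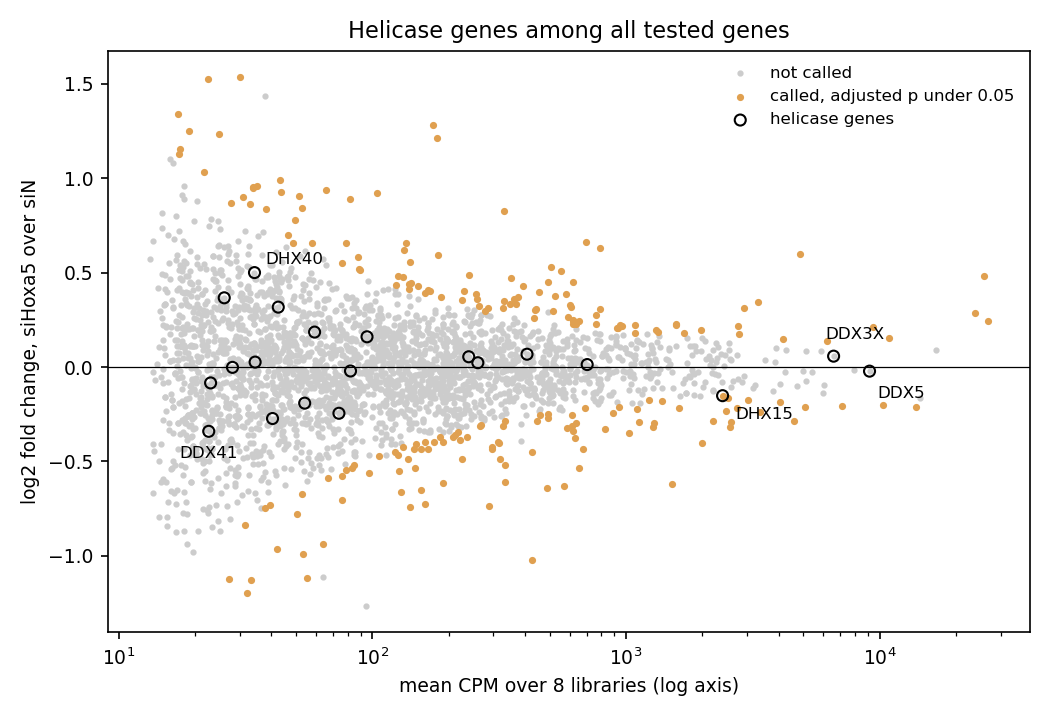
Log2 fold change of siHoxa5 over siN (y axis) against mean CPM (x axis, log) for all 3020 tested genes, with called genes in orange, others in grey and the 20 helicase genes as open circles. DDX5 and DDX3X lie near 0 at the abundant end, DHX15, at -0.15, is the called helicase, and the less abundant helicases lie among the genes that were not called.

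Other genes of RNA metabolism, on 10 lists of 186 genes, were examined beside the helicases: 73 were tested, 1 rose and 2 fell (4.11%, against 7.12% of all tested genes), with a median log2 fold change of 0.04. Among 9 tested genes of the cap-binding complex eIF4F and its regulators, PABPC1, the poly(A)-binding protein, fell. It had 12958, 12622, 12639 and 13436 CPM in siHoxa5, against 15232, 14876, 14729 and 14927 CPM in siN (-0.21, SE 0.04, edgeR adjusted p = 0.000115). Among 4 genes of the exon junction complex and export, THOC2, of the complex that couples transcription to export, rose to 491 ± 46.2 CPM in siHoxa5, against 396 ± 26.3 CPM in siN (SD, n = 4 each; 0.31, SE 0.08; edgeR adjusted p = 0.00711). Among 10 ribosome biogenesis factors, NOP10, a small protein of the pseudouridylation particle, fell to 40.6 ± 7.48 CPM in siHoxa5, against 64.8 ± 9.25 CPM in siN (SD, n = 4 each; -0.67, SE 0.21; edgeR adjusted p = 0.0334).

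No spliceosome protein passed among 21 tested: PRPF19 had -0.41 (SE 0.15) and SNRPC -0.87 (SE 0.31), both with an edgeR adjusted p = 0.0663. TFIP11 and GPATCH1, which carry a G-patch, a domain by which some proteins activate DEAH-box helicases, had 0 counts. Nor did any pass among 14 P-body and stress granule genes, where LSM14A had 0.28. CNOT1 of that list came close to the threshold, with 0.17 (SE 0.06, edgeR adjusted p = 0.0558). None passed among 6 RNA helicases with other names (DICER1 0.26, YTHDC2 0.30) or 8 microprocessor and coactivator partners (DROSHA 0.49, NCOA1 0.19). The 1 tested EIF4A gene did not pass either. THOC1 had 0.27, EIF4E2 -0.27 and NPM1 0.26, and none of these passed. On the lists of cytosolic RNA sensing and of mitochondrial RNA proteins no gene had enough counts to be tested.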

How the data were processed

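RNA of 8 libraries was selected with poly-T beads and sequenced on a NovaSeq, per the labels' protocols. Estimated counts were deposited by the authors without normalization, with 1 row per symbol except for 2 rows that repeat a symbol. All but 4 rows are whole numbers, and values were rounded before the fit. Per the submitters' processing notes, the build was mm10 and the tools were STAR 2.6.1b, HTSeq, FastQC 0.11.8 and R 3.5.3; neither the annotation nor the counting rules for strand and ambiguous reads are stated there. The 8 columns of the series table equalled the libraries' own files.

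Counts were tested with edgeR 4.0.16 (robust quasi-likelihood fit, TMM scaling, filterByExpr with minimum count 10 and minimum total 15) in R 4.3.3, with Benjamini-Hochberg adjustment over 3020 genes, which held 98.6% of the counts, and a threshold of 0.05. CPM use TMM-scaled library sizes. The common biological coefficient of variation was 6.10%. Adjusted p-values of single genes are from edgeR unless another tool is named. DESeq2 1.42.0, limma-voom (limma 3.58.1), RLE scaling, other filters, a replicate block and left-out libraries were tried. The fit was also run on simulated counts that gave every gene the same dispersion. In the data the coefficient differed between genes, with a median of 10.2% over the tested helicases. No result here rests on the simulation. No 2 libraries of a group agreed within sampling noise.

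The genes and lists were chosen with earlier results of these data known. Genes named in the text are helicases past the threshold, the 8 with the smallest p, the 8 with the highest CPM, listed paralog pairs, genes near the count limit or without overlap, and, of other RNA genes, those past the threshold or the 2 with the smallest p in a list. Other helicases were named to complete their roles. Transcripts are those with the longest coding sequence of each gene in GENCODE M21. Motif II codons were found as the codons for D-E-any-D or D-E-any-H in a stretch of limited length after a G-K-T or G-K-S of the translated sequence. A motif II outside that stretch was not found.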

Additional observations from a re-analysis of the deposited data

Results flagged for a closer look

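In 5 of 40 groups of 4 libraries (20 genes in each of the groups), 1 library stood far from the other 3. The measure was Dixon's ratio of its gap to the whole range (critical value 0.829). By chance that value is passed in about 1 in 20 groups, if values are normal and groups independent. Here the groups share the same libraries, and the rule was not run on all tested genes. Whether 5 of 40 is more than usual in these data is therefore not known. DDX3X was highest in siHoxa5 library 2, at 7186 CPM against 6499.8 to 6593 CPM in the other siHoxa5 libraries (ratio 0.864). DDX46 was highest in siHoxa5 library 1, at 105 CPM against 98.7 to 99.7 CPM (0.835), a gap set by how close the other 3 lay. DDX1 was highest in siHoxa5 library 3, at 32.2 CPM against 18.0 to 19.7 CPM (0.874). DDX42 was lowest in siN library 4, at 63.4 CPM against 86.5 to 90.8 CPM in the other siN libraries (0.841). DDX3Y was highest in siN library 1, at 47.0 CPM against 34.2 to 36.3 CPM (0.838).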

How the results depend on the processing

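The number of helicases called was 1 with edgeR and 0 with DESeq2 (of 13 with an adjusted p), 0 with no filter on low counts, and 0 to 1 without each library in turn. Over all genes, 215 were called with edgeR, 120 with DESeq2 and 143 without siHoxa5 libraries 2 and 4, of which 118 were among the 215; leaving out each library in turn gave 144 to 264. The cause of these differences was not tested. Of the 20 helicases, 9 changed sign under some of 15 alternatives. Log2 fold changes on the other side of 0 were 0.0075 for DDX1 with limma-voom, 0.0084 for DHX33 with no filter, and, without siHoxa5 libraries 2 and 4, -0.039 for DDX6, -0.081 for DDX50, 0.024 for DDX42, 0.10 for DDX23, -0.010 for DHX38 and 0.12 for DDX1. Without each library in turn, DDX5 ranged from -0.050 to 0.0054, DHX9 from -0.021 to 0.059, DDX42 from -0.14 to 0.065, DHX33 from -0.23 to 0.15, DDX1 from -0.32 to 0.16, DHX38 from -0.078 to 0.13, DDX6 from -0.040 to 0.051 and DDX50 from -0.050 to 0.15. With the replicate number as a block, 1 helicase (DHX15, edgeR adjusted p = 0.0419) and 250 genes were called. To check for pairs, the deviations of log CPM from the group mean were correlated between siHoxa5 and siN libraries. These deviations correlated at -0.02 to 0.07 between libraries of the same number. For 2 of 4 siHoxa5 libraries the best match was the siN library of their own number. With so few libraries this does not settle whether the numbers mark pairs, and the main fit did not treat them as pairs. With the sign kept, DDX17 ranged from 0.040 to 0.11, DDX3X from 0.025 to 0.074, DDX46 from 0.037 to 0.25 and DDX21 from -0.35 to -0.17 without each library in turn. The SE of the log2 fold change was 0.04 for DDX5 and 0.33 for DDX41, the most and least abundant by counts of the tested helicases. The other settings were fitted to all genes, but values of single genes outside the family, such as NOP10, are not given for them. How stable the calls of those genes are is therefore not shown.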
